A study of Mus musculus with 6 samples.

Results

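Saa3-high inflammatory fibroblasts were cells of injured Achilles tendon at 21 days post injury (dpi) that combined the mesenchymal receptor Pdgfra with a large amount of serum amyloid A3 (Saa3) transcript. In each of the 2 libraries of 21 dpi, the barcodes kept had at least 1000 unique molecular identifiers (UMIs, each counting 1 captured transcript molecule), at least 200 genes and at most 5% mitochondrial UMIs. Of these, cells with at least 1 Pdgfra UMI and no UMI of the endothelial gene Cdh5 formed the gate, and gated cells in which Saa3 made up 0.5% or more of all UMIs were Saa3-high. This gave 1257 cells, 568 of 5807 gated cells in the Gli1+ library and 689 of 5634 in the Gli1- library, out of 63329 filtered cells in the whole series. They were compared within their own library with Saa3-low cells, gated cells with Saa3 under 0.1% of UMIs that were drawn to match on total UMIs. The Saa3 share chose the cells, so it is given as a description, and so are the other genes of the same cells, with no test.

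The cells came from tamoxifen-induced Gli1-CreERT2; Ai9 reporter mice, in which Cre under control of the Gli1 promoter turns on a red fluorescent reporter. Tamoxifen was given before the injury, so that a Gli1+ cell is a cell, or the progeny of a cell, that transcribed Gli1 at that time. Achilles tenotomy, a cut through the tendon that is followed by heterotopic ossification (HO), was made in the injured groups. Tendon cells were taken without injury, at 7 dpi and at 21 dpi, and by the labels FACS gave a Gli1+ and a Gli1- fraction of each. Each of these 6 conditions was measured in 1 library of single-cell 3' transcripts, and the labels give 8 mice per time point, pooled and of equal sex. The age of the mice and the map from cells to mice are not given in the sources used here.

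Serum amyloid A proteins are acute-phase proteins that rise steeply in inflammation, and Saa3 is the member that mouse tissues outside the liver make. Fibroblasts exposed to interleukin 1, tumor necrosis factor or interleukin 17 are known to secrete such proteins together with neutrophil-attracting chemokines, collagen-degrading metalloproteinases and RANKL (Tnfsf11), the ligand that drives osteoclast formation. Tendon and synovial fibroblasts of this kind are known from inflamed joints and entheses, where matrix breakdown and bone remodelling meet.

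The 6 libraries held 72196599 to 135202247 UMIs in 8236 to 16437 barcodes. Any pair of libraries shared 27 to 75 barcodes, and the Saa3-high cells of both 21 dpi libraries shared 0. Despite the labels, the sexes were not balanced between libraries. Among gated cells at 21 dpi, 94.3% (Gli1+) and 95.1% (Gli1-) held Xist and no UMI of 4 Y-linked genes, whereas at 7 dpi 78.1% and 78.4% held Y-linked UMIs and no Xist. In uninjured tendon 64.1% of Gli1+ gated cells held Xist alone and 22.0% Y-linked UMIs alone, whereas 0 and 72.3% of Gli1- cells did, so the shares of the sexes differed between these fractions. Time and sex therefore cannot be told apart between 7 and 21 dpi. Within the 21 dpi libraries, 94.2% and 95.5% of the Saa3-high cells held Xist alone and 0 held Y-linked UMIs alone, close to the gated cells around them. All intervals below are 95% intervals that cover counting error only, since each condition had 1 library and cells are not replicates.

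Saa3-high cells were frequent at 21 dpi and scarce or absent elsewhere. They made up 9.78% (exact binomial interval 9.03 to 10.6) of gated cells in the Gli1+ library and 12.2% (11.4 to 13.1) in the Gli1- library at 21 dpi. At 7 dpi the same rule found 77 of 5228 (1.47%) Gli1+ and 113 of 6552 (1.72%) Gli1- gated cells. In uninjured tendon it found 0 of 1867 Gli1+ cells, which allows a share of up to 0.161% (3 counts of the total, the limit used throughout for a count of 0), and 1 of 4665 Gli1- cells (0.0214%). The summed Saa3 level of all gated cells, in UMIs per 1000000 (CPM), followed the same order, from 5.33 and 12.1 CPM without injury to 358 and 399.9 CPM at 7 dpi, and 5161 and 6758 CPM at 21 dpi. At 21 dpi the Gli1- library had the higher share, with intervals that did not overlap, but 1 library stands for each condition and the spread between mice is not known.

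**Figure D1:**
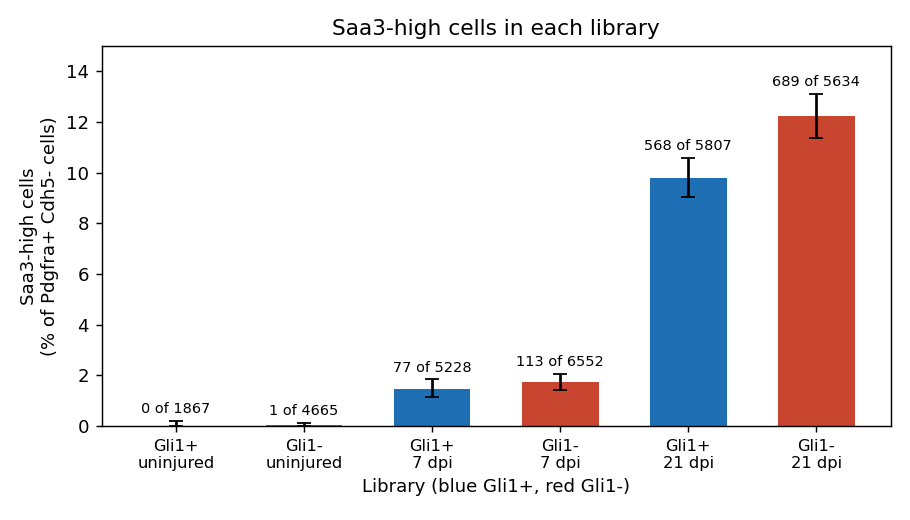
Share of Saa3-high cells among Pdgfra-positive, Cdh5-negative cells (percent, y axis) in each of the 6 libraries, with exact 95% binomial intervals that cover counting error only. The share was 0% and 0.0214% in uninjured tendon, 1.47% and 1.72% at 7 dpi and 9.78% and 12.2% at 21 dpi.

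The Saa3 share formed a long upper range and not a narrow peak. Among Saa3-high cells its median was 2.13% of a cell's UMIs in the Gli1+ library, from 0.504% to 17.6%, and 2.06% in the Gli1- library, from 0.507% to 28.9%. A share of 1% or more was found in 425 (74.8%) and 533 (77.4%) of these cells, and 94 and 119 cells reached 5%. No gap lay at the threshold, with 38 and 35 cells between 0.5% and 0.6% and 48 and 40 cells between 0.4% and 0.5%. The 373 and 462 gated cells from 0.1% to under 0.5% entered neither group. In contrast, 83.8% and 79.6% of gated cells stayed under 0.1%. The 77 and 113 cells of 7 dpi had lower shares, with medians of 0.826% and 0.807%.

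Saa3-high cells held a disproportionate part of the transcripts of their marker genes. They supplied 94.5% and 94.8% of all Saa3 UMIs of gated cells, which the rule fixes, while holding 15.7% and 20.7% of all UMIs. The threshold did not use the other markers, but they were picked with earlier results of these data known. Saa3-high cells supplied 62.8% and 66.3% of the Mmp13 UMIs, 71.7% and 73.9% of Hp, 71.1% and 73.2% of Il11, and 65.0% and 71.1% of Tnfsf11. By comparison, their part of Col1a1, the main tendon collagen chain, was 12.9% and 18.0%, and that of the tenocyte gene Tnmd was 3.25% and 4.57%.

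Saa3-high and Saa3-low cells came from the same Pdgfra gate. A comparison between them on defining genes of fibroblasts therefore describes the cells and cannot establish their identity. Of 12 such genes, Pdgfra was used by the gate, and of the other 11, 0 differed by 2-fold or more from Saa3-low cells. Dcn, a collagen-binding proteoglycan, stood at 6979 against 6724 CPM in the Gli1+ library and 6669.7 against 6539 CPM in the Gli1- library, and Col1a1 at 13279 against 18774 CPM in the Gli1+ library and 11354 against 17044 CPM in the Gli1- library. Dcn was thus level with the comparison cells, whereas Col1a1 was lower by 0.50 and 0.59 on the log2 scale, short of the 2-fold mark. Of 18 immune markers, 6 and 5 were at 0 in the matched Saa3-high cells of the Gli1+ and Gli1- libraries, Cd3e, Cd3g and Itgam among them, and Ptprc (CD45) had 0 and 1 UMI. In the matched Saa3-low cells Cd3e was found in 0% and Ptprc in 0% (Gli1+) and 0.696% (Gli1-). Both genes were thus near absent from either group and do not separate them. Their summed level was 74.2 against 70.4 CPM and 55.6 against 36.3 CPM, and S100a8 had the most UMIs among them, at 31.4 against 24.8 CPM in the Gli1+ library and 22.8 against 6.32 CPM in the Gli1- library. The part of these UMIs in the results was not tested. Scrublet marked 59 (10.4%) and 76 (11.0%) Saa3-high cells as likely doublets, beside 10.3% and 9.64% of Saa3-low cells. Within this limit, the markers did not go against the name fibroblast. Few endothelial or epidermal cells reached the same Saa3 share, and other cell types were not counted. Outside the gate as a whole, 80 (Gli1+) and 216 (Gli1-) cells passed it. Of cells with a Cdh5 UMI and no Pdgfra UMI, here called endothelial, 0 of 329 (which allows up to 0.912%) and 17 of 1846 (0.921%) passed it. Of cells with 10 or more Krt5 and Krt14 UMIs and neither Pdgfra nor Cdh5, here called epidermal, 0 of 690 (up to 0.435%) and 0 of 47 (up to 6.38%) did.

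Saa3-high cells held more UMIs than Saa3-low cells, with medians of 17305 and 17785 against 9305 and 8935 per cell, so the comparison was made at equal depth. For 538 Gli1+ and 575 Gli1- cells, 1 Saa3-low cell of the same depth was found for each, and 30 and 114 cells without a match were left out. After matching, median depths were 16892 and 16664.5 UMIs in the Gli1+ library and 16774 and 16575 in the Gli1- library. Median genes per cell were close as well, at 4163.5 against 4213.5 and 4119 against 4201. Mitochondrial shares were 2.62% against 2.34% and 2.80% against 2.66%.

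The 5 other marker genes, picked with earlier results of these data known, were all far higher in Saa3-high cells of both libraries. Mmp13, a collagenase that cuts fibrillar collagen, stood at 5315 against 553 CPM in the Gli1+ library and 5499 against 738 CPM in the Gli1- library. Its log2 ratios were 3.26 (95% interval 3.22 to 3.31) and 2.90 (2.86 to 2.93). Mmp3, a stromelysin that degrades proteoglycans and activates other metalloproteinases, was measured at 6608 against 559 CPM in the Gli1+ library and 7245 against 706 CPM in the Gli1- library. Its log2 ratios were 3.56 (95% interval 3.52 to 3.61) and 3.36 (3.32 to 3.40). Haptoglobin (Hp), a plasma protein that binds free hemoglobin, reached 5165 against 319 CPM in the Gli1+ library and 7666 against 609 CPM in the Gli1- library, with log2 ratios of 4.02 (95% interval 3.96 to 4.07) and 3.65 (3.62 to 3.69). Il11, a cytokine of the IL-6 family that acts on fibroblasts and bone cells, was at 228 against 18.2 CPM in the Gli1+ library and 289.7 against 30.4 CPM in the Gli1- library, with log2 ratios of 3.64 (95% interval 3.42 to 3.88) and 3.25 (3.07 to 3.44). Tnfsf11, the osteoclast-forming ligand RANKL, was at 393 against 45.3 CPM in the Gli1+ library and 365 against 37.6 CPM in the Gli1- library, with log2 ratios of 3.12 (95% interval 2.97 to 3.27) and 3.28 (3.12 to 3.45). In each case the order of the cell groups was the same in both sort fractions.

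The promoters of Saa3, Mmp13 and Mmp3 are shown because these genes were high together in the same cells. Each run is 250 bases before to 50 bases after the RefSeq transcription start, 5′ to 3′ on the gene's strand, in build GRCm38.p6, and capitals mark matches to the motifs searched on both strands. These were TGANTCA (AP-1), GGNNTTTCC (NF-kB) and TTNNGNAA (C/EBP), which 7.81%, 5.82% and 40.7% of 32851 promoter windows of the same length hold. The Saa3 window lies at chr7:46715627-46715926 on the minus strand, that of Mmp13 at chr9:7272264-7272563 and that of Mmp3 at chr9:7445572-7445871, both on the plus strand.
Saa3: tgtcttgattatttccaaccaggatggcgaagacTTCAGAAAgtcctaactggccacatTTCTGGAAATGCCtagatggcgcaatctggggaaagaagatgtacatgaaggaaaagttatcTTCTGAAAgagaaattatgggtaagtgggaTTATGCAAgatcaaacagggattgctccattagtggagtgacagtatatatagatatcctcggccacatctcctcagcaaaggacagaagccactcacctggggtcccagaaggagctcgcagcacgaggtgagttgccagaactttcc
Mmp13: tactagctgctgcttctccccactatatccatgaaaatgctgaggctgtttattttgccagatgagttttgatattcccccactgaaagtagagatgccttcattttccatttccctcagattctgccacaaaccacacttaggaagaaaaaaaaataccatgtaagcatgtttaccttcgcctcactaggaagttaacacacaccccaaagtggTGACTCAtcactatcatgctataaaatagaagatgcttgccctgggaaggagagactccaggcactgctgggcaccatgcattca
Mmp3: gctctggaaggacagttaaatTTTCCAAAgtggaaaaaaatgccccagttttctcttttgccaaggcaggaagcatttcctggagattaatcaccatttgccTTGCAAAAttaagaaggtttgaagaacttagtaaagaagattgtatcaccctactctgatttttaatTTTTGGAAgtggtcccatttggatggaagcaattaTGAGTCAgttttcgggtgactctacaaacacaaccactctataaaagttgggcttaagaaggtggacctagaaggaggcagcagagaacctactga
The Saa3 window held 1 NF-kB match that starts 187 bases before the transcription start, and 4 C/EBP matches, 1 of which overlaps it. The Mmp13 window held 1 AP-1 match 35 bases before the start. The Mmp3 window held 1 AP-1 match 46 bases before the start and 3 C/EBP matches. Of 13 genes looked up, 10 had a window. Mmp10 held an AP-1 match 63 bases before its start, and 1 of the 2 Il11 windows held 1 at 98 bases before its start. The windows of Saa1, Saa2, Lcn2 and Slpi held C/EBP matches but 0 of AP-1 and 0 of NF-kB, and the Tnfsf11 window held no match. A match is a run of letters, not a shown binding site.

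Detection in single cells separated the groups at equal depth. Each matched cell was thinned to 2000 UMIs, which left 535 Gli1+ and 572 Gli1- Saa3-high cells and as many Saa3-low cells (3 pairs each left out). For comparison, 303 and 1517 endothelial cells were thinned likewise, whose median depths were 6887 and 7108 UMIs before thinning. Whether their UMIs of these genes came from free RNA, doublets or the cells themselves was not tested. An Hp UMI was found in 83.0% of Saa3-high, 18.3% of Saa3-low and 7.26% of endothelial cells of the Gli1+ library, and in 91.1%, 30.9% and 19.5% in the Gli1- library. Before thinning the Hp shares of Saa3-high and Saa3-low cells were 92.4% and 46.5%, and 98.3% and 69.7%. For Mmp13 the thinned shares were 72.1%, 19.8% and 14.2%, and 79.0%, 31.8% and 23.1%. Tnfsf11 was found in 36.8%, 4.49% and 0.330%, and in 34.4%, 6.82% and 1.65%. The Mmp13 share of Saa3-low cells in the Gli1+ library (interval 16.5% to 23.4%) overlapped that of endothelial cells (10.5% to 18.6%) and was not told apart from it at this depth. In the Gli1- library these intervals did not overlap (28.0% to 35.8% against 21.0% to 25.3%). Saa3-high cells lay far above the endothelial share for each of these genes.

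The markers, picked with earlier results of these data known, also occurred together. At least 3 of the 5 markers other than Saa3 were found in 65.0% of Saa3-high cells of the Gli1+ library and 75.3% in the Gli1- library. The same held for 5.98% and 10.3% of Saa3-low cells and 0.330% and 4.48% of endothelial cells. All 5 were found in 5.98% and 8.92% of Saa3-high cells, in none of the Saa3-low cells (0 of 535, which allows up to 0.561%, and 0 of 572, up to 0.524%), and in none of the endothelial cells (0 of 303, which allows up to 0.990%, and 0 of 1517, up to 0.198%).

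Saa3-high cells differed widely among themselves. Mmp13 had a median of 2185 CPM per cell in the Gli1+ library, with a lower quartile of 138 and an upper quartile of 7673 CPM, and 82 of 538 cells held none. Il11 was concentrated in few cells, since 399 of 538 (74.2%) and 398 of 575 (69.2%) held no Il11 UMI before thinning while the highest cells reached 7863 and 8243 CPM. Over thinned Saa3-high cells (565 and 686), Spearman correlations are given as a description, since the cells share a library. Mmp13 and Mmp3 correlated at 0.59 and 0.37. Saa3 itself followed Mmp3 (0.35 and 0.36) and Hp (0.31 and 0.40). Its correlations with Il11 were small (0.07 and 0.00), and so were those of Hp with Il11 (0.02 and -0.09). After thinning, Il11 was found in 10.7% and 16.3% of matched Saa3-high cells, so most cells were tied and small values say little. Il11 correlated with Mmp3 at 0.29 and 0.21 and with Tnfsf11 at 0.25 and 0.28.

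Mmp3 and Hp were higher in each successive bin of Saa3 share, also below the threshold, in both 21 dpi libraries. Mmp13 and Il11 did not climb at every step, as Mmp13 was at 3279 CPM at 0.2 to 0.5% and 3156 CPM at 0.5 to 1% in the Gli1+ library, and Il11 at 342 CPM at 1 to 2% and 266 CPM at 2% or more in the Gli1- library. In gated Gli1+ cells with no Saa3 UMI, Mmp3 was at 478 CPM. It was at 2242 CPM in cells with 0.2 to 0.5% Saa3, 4205 CPM at 0.5 to 1%, and 8274 CPM at 2% or more. In the Gli1- library these levels were 510, 2750.5, 4302 and 9061 CPM. Hp went from 146 CPM at no Saa3 to 1876 CPM just under the threshold and 6497 CPM at 2% or more (Gli1+), and from 261 to 3437 and 9787 CPM (Gli1-). Tnmd was lower at the upper end, going from 259.9 CPM at no Saa3 to 26.4 CPM at 2% or more in the Gli1+ library and from 209 to 28.1 CPM in the Gli1- library. The cells in the higher bins were also deeper, with a median of 8441 UMIs at no Saa3 and 18224 UMIs at 2% or more in the Gli1+ library. These bins were not matched on depth.

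**Figure D2:**
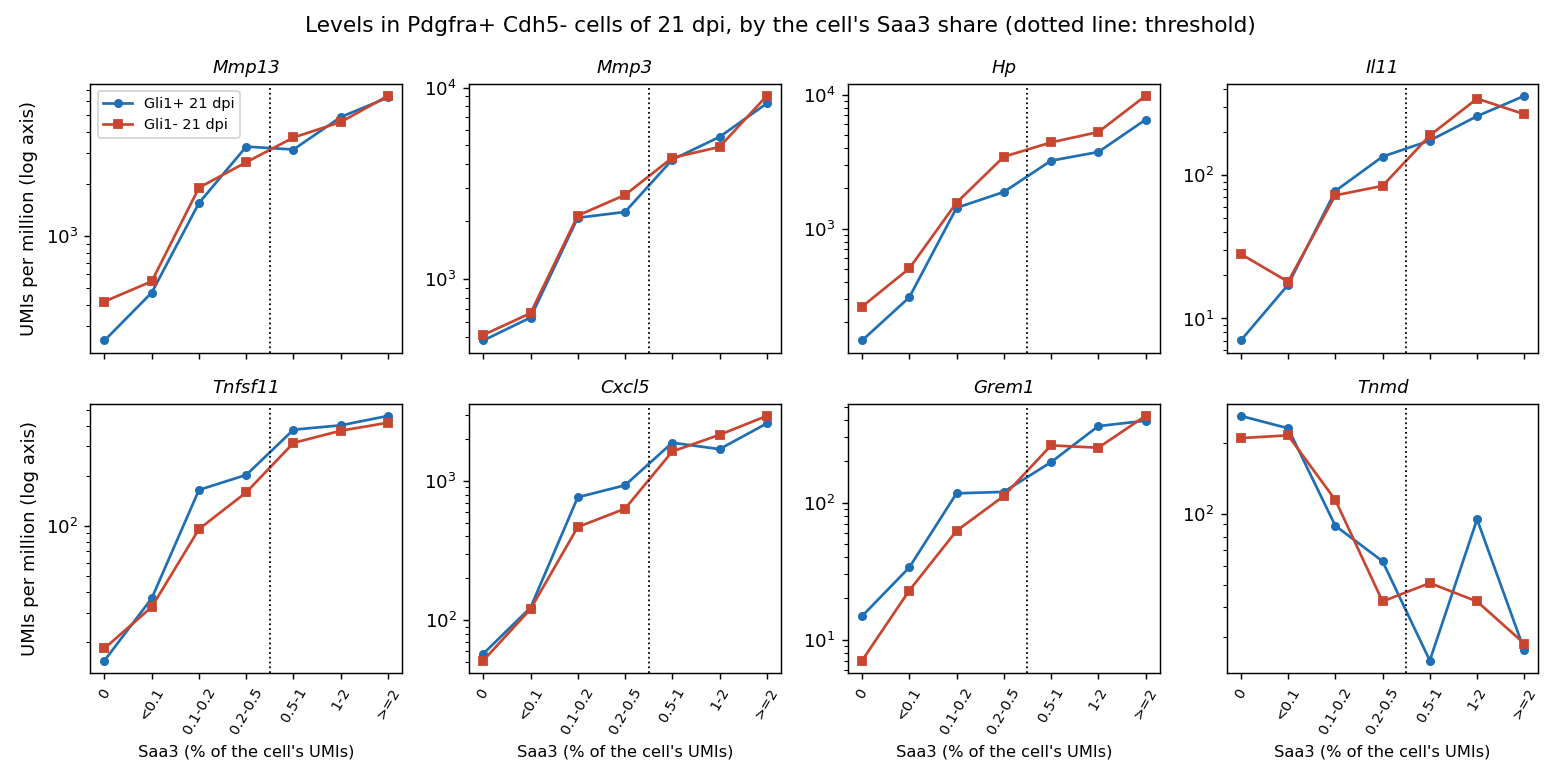
Levels of marker and tendon genes (CPM, log axis) in gated cells of both 21 dpi libraries, in bins of the Saa3 share of a cell's UMIs, summed over the cells of a bin. In the Gli1+ library Mmp3 went from 478 CPM at no Saa3 to 8274 CPM at 2% or more, while Tnmd went from 259.9 to 26.4 CPM.

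Across the transcriptome, 11245 genes had at least 50 UMIs in the matched cells of each library, without Saa3, Pdgfra and Cdh5, which the rule used. Of these, 273 (2.43%) were 2-fold or more higher in Saa3-high cells in both libraries and 425 (3.78%) were 2-fold or more lower. The median gene had a log2 ratio of -0.08 in the Gli1+ and -0.09 in the Gli1- library, which TMM scaling moved to 0.02 and 0.03. By library, 359 and 368 genes were higher and 618 and 632 lower. Only 1 gene, Areg, passed 2-fold in opposite directions. These shares are the background for the gene groups that follow, and since the same cells were picked on Saa3, nothing further is read from them. Several of these groups also count the markers Hp, Mmp13, Mmp3, Il11 and Tnfsf11, which were picked beforehand.

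**Figure D3:**
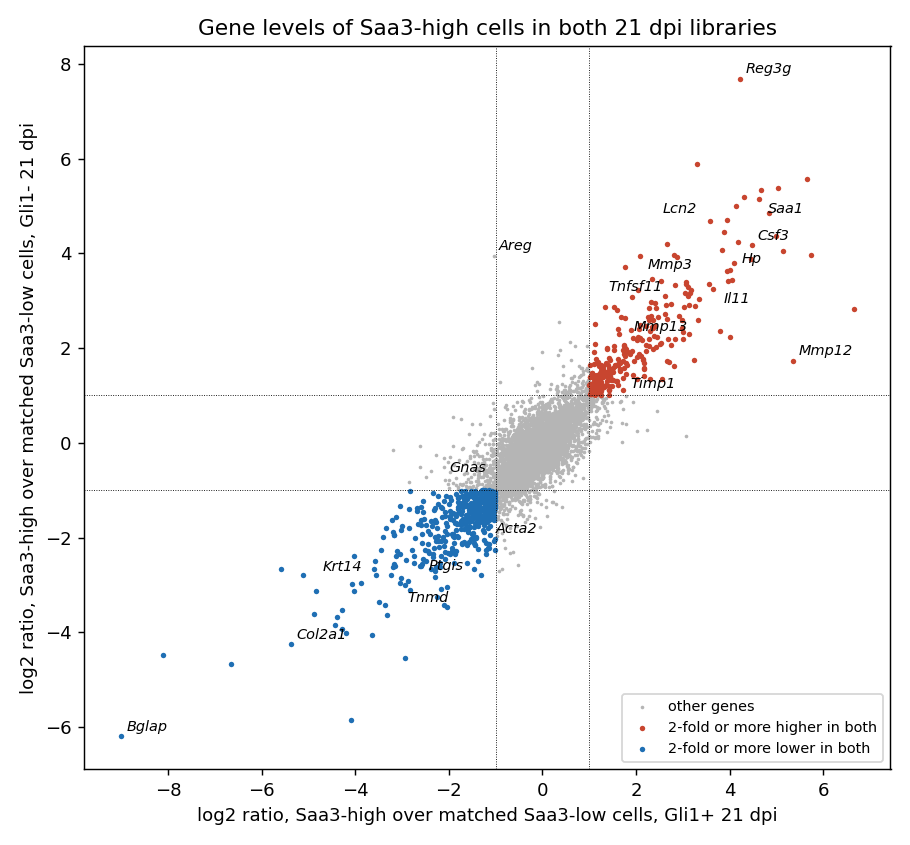
Log2 ratio of each of 11245 genes in Saa3-high over depth-matched Saa3-low cells, in the Gli1+ library (x axis) and the Gli1- library (y axis). Red points mark the 273 genes 2-fold or more higher and blue points the 425 genes 2-fold or more lower in both.

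Genes with the highest ratios included acute-phase, antimicrobial and cytokine genes of low abundance. Saa1, a liver-type serum amyloid A, was at 43.1 against 1.75 CPM in the Gli1+ library and 62.2 against 1.74 CPM in the Gli1- library, with log2 ratios of 4.63 and 5.16. Saa2 had 51 UMIs against 1 and 96 against 2, ratios of 50.4 (8.65 to 2029) and 47.5 (12.8 to 398). Saa1 and Saa2 are near-identical copies and are related to Saa3, so how UMIs were split among these genes is uncertain. Reg3g, an antimicrobial lectin, was at 10.2 against 0.546 CPM in the Gli1+ library and 67.3 against 0.327 CPM in the Gli1- library, and the cathelicidin gene Camp at 31.7 against 2.07 CPM in the Gli1+ library and 42.6 against 1.63 CPM in the Gli1- library. Among chemokines and cytokines, Ccl3 was at 21.4 against 0.655 CPM in the Gli1+ library and 18.1 against 0.436 CPM in the Gli1- library, Ccl20, the ligand of CCR6, at 17.3 against 0.873 CPM in the Gli1+ library and 15.8 against 0.436 CPM in the Gli1- library, and Csf3, the granulocyte growth factor G-CSF, at 193 against 8.62 CPM in the Gli1+ library and 284 against 15.8 CPM in the Gli1- library. Il1a had 126 UMIs against 8 in the Gli1+ library and 75 against 0 in the Gli1- library, at least 24.7-fold higher when set against 3 UMIs over the group. Apart from Csf3, the Saa3-low cells of a library held 19 or fewer UMIs of each of these genes. Other gated cells held some of them too, since Saa3-high cells supplied 39.0% and 84.1% of the Ccl20 UMIs and 46.3% and 74.8% of the Saa2 UMIs of all gated cells in the Gli1+ and Gli1- libraries. Ccl20 fell under 2-fold in a library when the Saa3-high threshold was 1%, and also with comparison cells under 0.5% Saa3. Csf3 was also frequent in endothelial cells, since after thinning it was found in 17.6% of Saa3-high and 17.5% of endothelial cells in the Gli1+ library, and in 21.0% and 16.2% in the Gli1- library.

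The cytokine receptor genes Il23r and Il13ra2 were also among the 15 highest ratios. Il23r, which binds the cytokine that sustains IL-17 producing cells, stood at 24.9 against 0.873 CPM in the Gli1+ library and 28.3 against 0.980 CPM in the Gli1- library. It was at 28.9 CPM over all gated Gli1+ cells of uninjured tendon, of which 0 were Saa3-high, and had 0 UMIs in those of the uninjured Gli1- library. Il13ra2, a decoy receptor for interleukin 13, was at 30.7 against 0.873 CPM in the Gli1+ library and 26.9 against 1.63 CPM in the Gli1- library. The others of the 15 highest were Kng1 (kininogen, 5.75 and 3.97 on the log2 scale), the potassium channel gene Kcnk10 (4.17 and 4.23), the noncoding RNA U90926 (4.68 and 5.34), Cdhr17 (4.13 and 5.0) and Prl2c2 (4.99 and 4.38), which belongs to a family of near-identical copies and is uncertain. The gene Trdc, the constant part of the T-cell receptor delta chain, was chosen after its values were seen. It was at 117 against 11.5 CPM in the Gli1+ library and 96.5 against 11.8 CPM in the Gli1- library, although Cd3e and Cd3g had 0 UMIs in the same cells. After thinning, Trdc was found in 15.7% and 12.4% of Saa3-high, 2.43% and 2.27% of Saa3-low and 0.330% and 1.05% of endothelial cells.

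Acute-phase and innate defence genes had the highest median of the gene groups beside the markers. Of 20 listed, 18 were compared, 10 were 2-fold or more higher in both libraries and 0 lower, with median log2 ratios of 1.79 and 1.71 beside -0.08 and -0.09 over all genes. Besides Hp, Saa1 and Saa2, Lcn2, a lipocalin that withholds iron from bacteria, stood at 768 against 64.4 CPM in the Gli1+ library and 1071 against 41.4 CPM in the Gli1- library. Its log2 ratios were 3.58 (95% interval 3.45 to 3.70) and 4.69 (4.55 to 4.85). After thinning, Lcn2 was found in 33.6% and 48.4% of Saa3-high cells. The shares of Saa3-low cells (5.23% and 5.77%) lay under those of endothelial cells (6.60% and 9.03%), so the base of these ratios was not above the endothelial share. Slpi, an inhibitor of neutrophil elastase named here after its values were seen, was at 8572 against 991 CPM in the Gli1+ library and 6702 against 776 CPM in the Gli1- library.

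Metalloproteinases were higher selectively. Of 19 matrix metalloproteinases and ADAMTS proteases compared, 4 were 2-fold or more higher and 0 lower, and the group medians were 0.33 and 0.09. Beside Mmp13 and Mmp3, these were stromelysin 2 (Mmp10), at 182 against 39.3 CPM in the Gli1+ library and 169 against 44.2 CPM in the Gli1- library, and the elastase Mmp12, at 49.0 against 1.20 CPM in the Gli1+ library and 43.9 against 13.2 CPM in the Gli1- library. The Mmp12 ratios of both libraries differed (5.35 and 1.73) as the Saa3-low cells of the Gli1- library held more of it. Of 4 inhibitors compared, Timp1 alone was 2-fold or more higher, at 2727 against 864 CPM in the Gli1+ library and 2279 against 783 CPM in the Gli1- library. Timp1 fell under 2-fold in a library when cells with UMIs of other cell types were left out. As compared, proteases and their inhibitor Timp1 were both higher in the same group of cells, while the medians of the 4 inhibitors were -0.49 and -0.68.

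Chemokines were partly higher, with 8 of 17 compared genes higher, 2 lower (Cxcl10 and Ccl11) and medians of 1.06 and 1.21. Cxcl5, which recruits neutrophils through CXCR2, was at 1994 against 139 CPM in the Gli1+ library and 2333 against 139.6 CPM in the Gli1- library, with log2 ratios of 3.84 (95% interval 3.76 to 3.92) and 4.06 (3.98 to 4.15). Cxcl3, another CXCR2 ligand, was at 203 against 32.1 CPM in the Gli1+ library and 107 against 17.4 CPM in the Gli1- library. Ccl5, which attracts T cells, was at 47.8 against 2.18 CPM in the Gli1+ library and 28.9 against 1.96 CPM in the Gli1- library. Its Saa3-low cells held 20 and 18 UMIs, so the ratio rests on a low base. Over all gated cells of uninjured tendon Ccl5 was at 56.3 CPM (Gli1+) and 1.16 CPM (Gli1-).

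Some ligands of the IL-6 family were higher. Of 13 genes compared, 4 were higher and 0 lower, with medians of -0.02 and -0.03. Next to Il11 these included the ligands Lif (2.17 and 1.69 on the log2 scale), a cytokine active on bone and immune cells, and Clcf1 (1.61 and 1.21).

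Of 29 genes of the IL-1, TNF and NF-kB response, 7 were higher and 0 lower, with medians of 0.35 and 0.16. Il1rl1, the receptor of interleukin 33, was at 244 against 29.1 CPM in the Gli1+ library and 248 against 23.4 CPM in the Gli1- library. Sod2, the mitochondrial superoxide dismutase that NF-kB induces, was at 809 against 146 CPM in the Gli1+ library and 926 against 146 CPM in the Gli1- library. Traf1, an adaptor of TNF receptors, had few UMIs, 49 against 10 and 51 against 7 (5.28 and 5.50 CPM in Saa3-high cells), and was at 20.9 CPM in gated cells of the uninjured Gli1+ library. Of 21 transcription factors of inflammation and stress, 1 was higher, the AP-1 gene Fosl1 (1.21 and 1.63), and 1 lower, Atf3 (-1.24 and -1.42), with medians of -0.43 and -0.25. Among 13 interferon-stimulated genes, 0 were higher and 2 lower, with medians of -0.68 and -0.40. Bst2 (tetherin) had log2 ratios of -1.81 and -1.14, and Ifit3 had -2.85 and -1.39 on 7 against 50 and 17 against 44 UMIs, a direction that turned in the Gli1- library when cells were thinned. None of the 10 heat shock genes that tissue dissociation induces passed 2-fold, and their medians were -0.20 and -0.27.

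Prostaglandin genes went in both directions. Of 11 compared, 5 were higher (Ptgs2, Ptges, Ptger2, Ptgs1 and Pla2g4a) and 1 lower (Ptgis), with medians of 0.13 and 0.42. Ptgs2 (cyclooxygenase 2), the inducible first enzyme of the route, was at 489.9 against 121 CPM in the Gli1+ library and 389.6 against 86.0 CPM in the Gli1- library. Ptges, which makes prostaglandin E2, was at 212 against 51.6 CPM in the Gli1+ library and 179 against 37.7 CPM in the Gli1- library, and the prostaglandin E2 receptor gene Ptger2 had log2 ratios of 2.98 and 2.60. Prostacyclin synthase (Ptgis) went the opposite way, at 21.7 against 145 CPM in the Gli1+ library and 18.4 against 96.5 CPM in the Gli1- library. The other prostaglandin E synthases, Ptges2 (0.12 and 0.42) and Ptges3 (-0.10 and -0.24), named after their values were seen, did not pass 2-fold.

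Of 6 osteoclast and colony-stimulating factors compared, 3 were higher and 0 lower, with medians of 1.66 and 1.37. Beside Tnfsf11 and Csf3, Csf2 (GM-CSF) had 102 UMIs against 1 in the Gli1+ library, a ratio of 101 (17.7 to 4020), and 50 against 7 in the Gli1- library, a log2 ratio of 2.82. Csf2 fell under 2-fold in a library when cells with UMIs of other cell types were left out. Of 4 IL-17 receptor and adaptor genes compared, 1 was lower, Il17rd (-1.12 and -1.13), which fell under 2-fold in several alternative settings, thinning among them. Of 12 complement genes, Cfb, a factor of the alternative pathway, was higher (1.17 and 1.44) and Cd55, which shields cells from complement, lower (-1.58 and -1.77).

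Some secreted regulators of bone formation were higher, and others lower. Of 20 BMP, TGF-beta and activin genes compared, 5 were higher (Grem1, Bmp2, Inhba, Nog and Gdf5) and 1 lower (Tgfb3), with medians of 0.42 and 0.32. Grem1 (gremlin), a secreted BMP antagonist, stood at 344 against 41.1 CPM in the Gli1+ library and 358 against 34.7 CPM in the Gli1- library. Its log2 ratios were 3.06 (95% interval 2.91 to 3.22) and 3.36 (3.20 to 3.53). Bmp2, an inducer of bone formation, was at 214 against 26.8 CPM in the Gli1+ library and 136 against 29.5 CPM in the Gli1- library, and at 161 and 135 CPM in all gated cells of uninjured tendon. Inhba, which encodes the subunit of activin A, was at 472 against 73.2 CPM in the Gli1+ library and 428 against 93.6 CPM in the Gli1- library, and the BMP antagonist Nog had log2 ratios of 1.74 and 2.04 on 61 against 18 and 79 against 19 UMIs. Of 14 secreted Wnt modulators, 2 were higher and 4 lower, with medians of -0.21 and -0.17. Wnt5a, a ligand of noncanonical Wnt signaling, was at 193 against 47.3 CPM in the Gli1+ library and 162 against 46.4 CPM in the Gli1- library, and Rspo3, which enhances Wnt signaling, had log2 ratios of 2.27 and 2.05. The Wnt inhibitors Frzb (-2.27 and -2.61) and Dkk2 (-1.61 and -2.15) were lower, and so were Wif1 and Sfrp4.

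**Figure D4:**
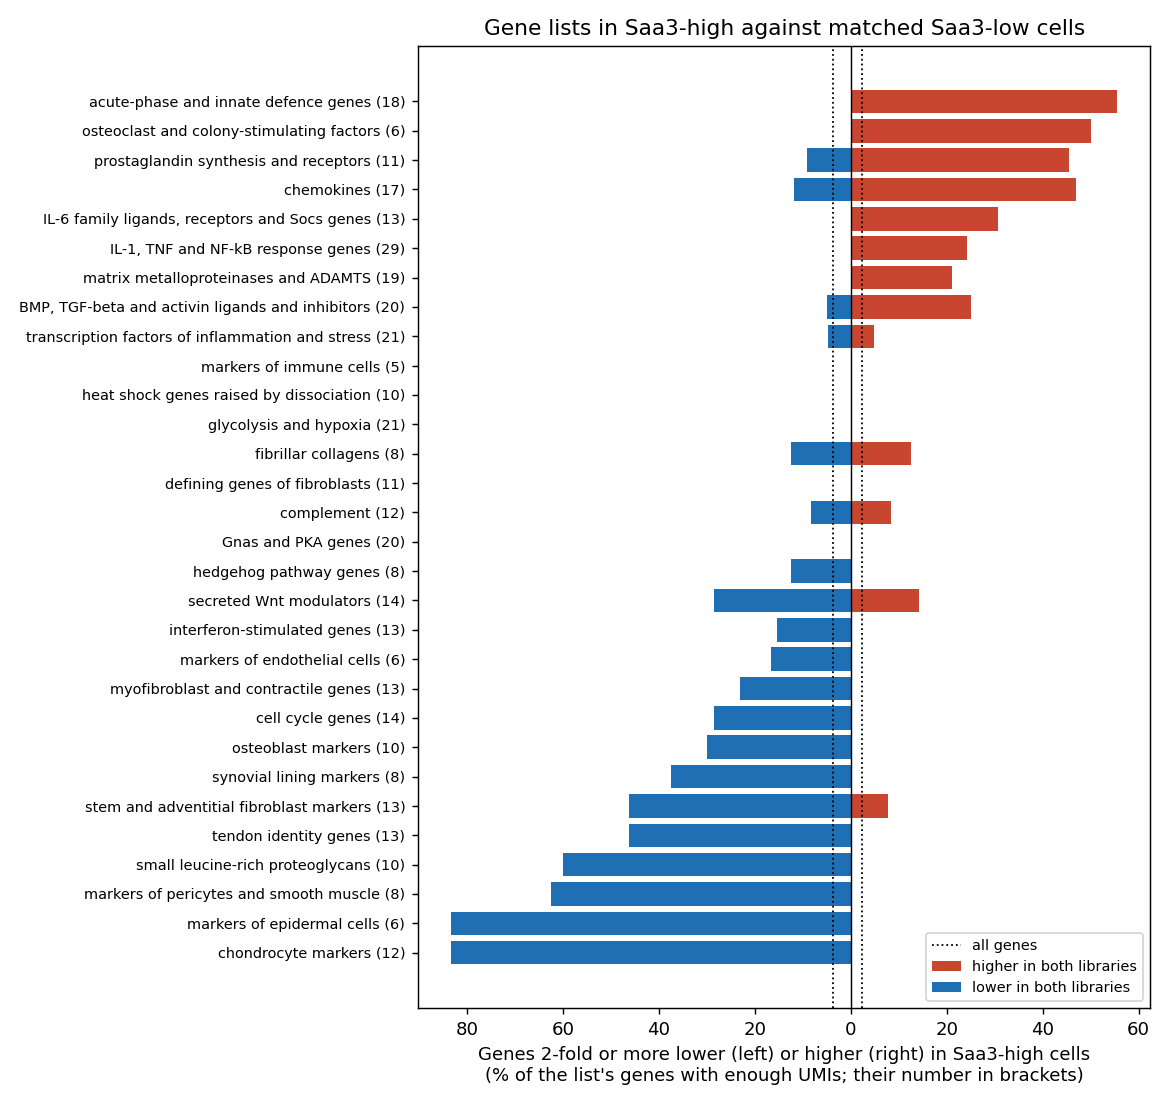
Percent of the compared genes of gene lists that were 2-fold or more higher (right) or lower (left) in Saa3-high than in depth-matched Saa3-low cells, in both 21 dpi libraries. Dotted lines mark the shares over all genes. Of acute-phase genes 10 of 18 were higher, of small leucine-rich proteoglycans 6 of 10 lower, and of chondrocyte genes 10 of 12 lower. Col9a1 and Col9a2, however, lay within 2-fold when cells with UMIs of cartilage, bone or keratin genes were left out of both groups.

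Several genes of tendon matrix were lower. Of 13 tendon identity genes, 6 were 2-fold or more lower and 0 higher, with medians of -0.97 and -1.24. Tnc, also one of the 13, went the other way without passing 2-fold in both libraries, with values under the other observations. Tnmd (tenomodulin), a marker of mature tenocytes, was at 33.5 against 277 CPM in the Gli1+ library and 27.8 against 218 CPM in the Gli1- library, with log2 ratios of -3.04 (95% interval -3.22 to -2.87) and -2.97 (-3.16 to -2.78). Cilp2 (-3.14 and -2.61), Cilp (-1.94 and -2.23) and the corneal and tendon proteoglycan Kera (-2.11 and -3.42) were lower too. Of 10 small leucine-rich proteoglycans, which organise collagen fibrils, 6 were lower and 0 higher. Ogn (osteoglycin) was at 52.3 against 245 CPM in the Gli1+ library and 64.8 against 272 CPM in the Gli1- library, and Omd (-2.17 and -3.08), Prelp (-1.91 and -1.93) and Ecm2 (-1.81 and -1.98) lay in the same direction. Of 8 fibrillar collagens, Col11a1 was lower (-1.08 and -1.37) and Col24a1 higher (1.25 and 1.28), with medians of -0.06 and -0.30. Col11a1 fell under 2-fold in a library in several alternative settings, TMM scaling and no matching among them. Col24a1 did so with likely doublets removed and with comparison cells under 0.5% Saa3.

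Some markers of other fibroblast states were also lower. Of 13 stem and adventitial fibroblast markers, 6 were lower and 1 higher, with medians of -0.94 and -1.01, and examples were Clec3b (-1.70 and -1.69), Dpp4 (-2.54 and -1.60) and Sema3c (-1.46 and -2.02). Of 8 synovial lining markers, 3 were lower and 0 higher. Has1, a hyaluronan synthase, was at 148 against 389.9 CPM in the Gli1+ library and 142 against 391 CPM in the Gli1- library, and Col22a1, a collagen of tissue junctions, had log2 ratios of -3.17 and -2.57, which became -0.83 and -0.36 when cells with 3 or more UMIs of cartilage, bone or keratin genes were left out of both groups. Of 13 myofibroblast and contractile genes, 3 were lower and 0 higher. Cthrc1, a secreted protein of matrix-producing fibroblasts, was at 272 against 891 CPM in the Gli1+ library and 184 against 793 CPM in the Gli1- library. The smooth muscle genes Acta2 (-1.29 and -1.37) and Tagln (-1.85 and -1.84) lay lower as well. Acta2 was at -0.64 and -0.93 when comparison cells with cartilage, bone or keratin UMIs were left out. It was at -1.23 and -1.34 when such cells were left out of both groups. Without matching, Acta2 and Tagln fell under 2-fold in a library, and Acta2 also did so with likely doublets removed. Saa3-high cells held 14.0% and 15.9% of the Acta2 UMIs of gated cells, beside 15.7% and 20.7% of all their UMIs. Of the markers of these 3 states past 2-fold in both libraries, Procr, the endothelial protein C receptor, was the exception in being higher (1.36 and 1.50).

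Cartilage and bone genes showed the lowest ratios, and several of these moved with a filter on the cells compared. Col2a1, the main cartilage collagen, was at 25.9 against 1067 CPM in the Gli1+ library and 68.5 against 1307 CPM in the Gli1- library, log2 ratios of -5.37 and -4.25. In an alternative chosen after seeing the data, cells with 3 or more UMIs of Col2a1, Bglap, Bglap2, Ibsp, Krt5 or Krt14 were left out of both groups, which sets a ceiling on these 6 genes in each cell. Of the cartilage genes outside this filter, Col9a1 (-4.39 and -3.68) then became -0.09 and -0.67, Col9a2 (-4.29 and -3.92) became 0.28 and -0.14, and Matn3 (-4.43 and -3.84) stayed past 2-fold at -1.97 and -1.72. With the filter on comparison cells alone, however, Matn3 turned direction in the Gli1- library. As compared, 10 of 12 chondrocyte genes and 3 of 10 osteoblast genes were lower and 0 higher. The 3 osteoblast genes were Bglap, Bglap2 and Phex, and all lost the 2-fold call in that alternative. Bglap and Bglap2 are genes of the filter, whereas Phex is not, and Phex turned direction in the Gli1+ library. Bglap (osteocalcin) had 5 UMIs against 2539 and 9 against 653, Bglap2 3 against 817 and 10 against 221, Col10a1 4 against 398 and 5 against 125, and Ucma 42 against 759 and 72 against 1146. Ucma was at -2.27 and -0.54 in the same alternative, and of the genes given above Omd was at -0.73 and -1.08, Frzb at -1.29 and -0.81 and Col11a1 at -0.84 in the Gli1+ library. The remaining genes of the 10 lowest, like Ucma, are not listed under either tissue. Klk1 (a kallikrein) had 0 UMIs against 187 in the Gli1+ library, at least 63.1-fold lower when set against 3 UMIs over the group, and 4 against 207 in the Gli1- library, where its log2 ratio was -0.34 in that alternative. Kcnk1, a potassium channel gene, had 7 against 118 and 1 against 57. The regulators Sox9 (0.19 and -0.03) and Runx2 (-0.04 and 0.08) were named after their values were seen, and neither came near 2-fold.

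In the Gnas and protein kinase A set, 0 of 20 genes were 2-fold or more higher or lower, and the medians were -0.13 and -0.25. Gnas, which encodes the stimulatory G alpha subunit and was named after its values were seen, stood at 874 against 1547 CPM in the Gli1+ library and 829.6 against 1581 CPM in the Gli1- library, log2 ratios of -0.82 and -0.93. It was below the Saa3-low cells in both libraries without passing 2-fold. Of 8 hedgehog pathway genes, Gli2 was lower (-1.58 and -1.64). Gli2 fell under 2-fold in a library after thinning, and also when cells with UMIs of other cell types were left out. Gli1 itself was sparse, with 4 UMIs against 31 in the Gli1+ library and 9 against 38 in the Gli1- library, and so gave no check of the sort. Of 21 glycolysis and hypoxia genes, 0 passed 2-fold, with medians of 0.45 and 0.57. Of 14 cell cycle genes, 4 were lower (Mcm3, Mcm6, Rrm2 and Cenpf) and 0 higher. All 4 fell under 2-fold or turned in a library when cells with UMIs of other cell types were left out, and also without matching. Mcm6 and Cenpf turned direction in the Gli1+ library in the first of these settings, and Cenpf in the Gli1- library without matching.

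Apart from the immune markers and Trdc given above, the summed marker transcripts of other cell types were lower in Saa3-high cells. Summed epidermal markers were at 190 against 1710 CPM in the Gli1+ library and 32.0 against 127 CPM in the Gli1- library, with 5 of 6 compared genes lower, of which Sfn was at -0.56 and -1.13 and Perp at -1.73 and -1.77 when cells with cartilage, bone or keratin UMIs were left out of both groups (Krt5 and Krt14 are genes of that filter). Summed pericyte markers were at 80.9 against 208 and 207 against 479 CPM, with 5 of 8 lower (Rgs5, Mcam, Cspg4, Myh11 and Notch3). Rgs5 and Cspg4 fell under 2-fold in several alternative settings, Cspg4 also with another seed. Rgs5, a pericyte gene, was at 29.2 against 93.5 CPM in the Gli1+ library and 103 against 255 CPM in the Gli1- library, and Mcam was lower in both libraries but turned when cells with UMIs of other cell types were left out. Summed endothelial markers were at 33.8 against 51.8 and 96.1 against 131 CPM, with Tek lower. Of 1 Schwann cell gene compared 0 passed 2-fold, and of 2 muscle genes 1 was lower, Myl1. The part of these transcripts in the results was not tested.

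At 7 dpi, the 77 and 113 cells that passed the same Saa3 threshold carried some of these differences. They were compared with 231 and 339 Saa3-low cells of their own library. Hp had log2 ratios of 4.41 and 3.56 at 7 dpi beside 4.02 and 3.65 at 21 dpi, Lcn2 2.71 and 3.52, Mmp3 3.52 and 2.30 and Timp1 1.42 and 1.50. Mmp13, however, was at 39.0 against 31.7 CPM in the Gli1+ and 51.7 against 38.4 CPM in the Gli1- library at 7 dpi, log2 ratios of 0.30 (-0.24 to 0.82) and 0.43 (0.07 to 0.78). Inhba (0.01 and 0.14) was near level at 7 dpi. Grem1 (-0.06 and -0.01) rested on few UMIs. In cells with 0.5 to 1%, 1 to 2% and 2% or more Saa3 it had 3, 7 and 0 UMIs (Gli1+), and 6, 5 and 1 (Gli1-). Il11 had log2 ratios of 1.27 and 2.46 on 13 and 63 UMIs, and Tnfsf11 1.85 and 1.03. Tagln (-2.39 and -2.68) and Tnmd (-1.83 and -2.15) lay lower at 7 dpi as at 21 dpi. The ratios of Hp and Lcn2 were thus large at both times, while those of Mmp13 and Inhba were large at 21 dpi alone. That of Grem1 was large at 21 dpi and is uncertain at 7 dpi. The cells of 7 dpi also had lower Saa3 shares, and time and sex cannot be told apart. In cells with 0.5 to 1% Saa3 at 7 dpi, Mmp13 was at 21.5 (Gli1+) and 9.35 CPM (Gli1-), on 16 and 11 UMIs. In cells of this share at 21 dpi it was at 3156 and 3703 CPM. Whether the ratios differ between the times was not tested.

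**Figure D5:**
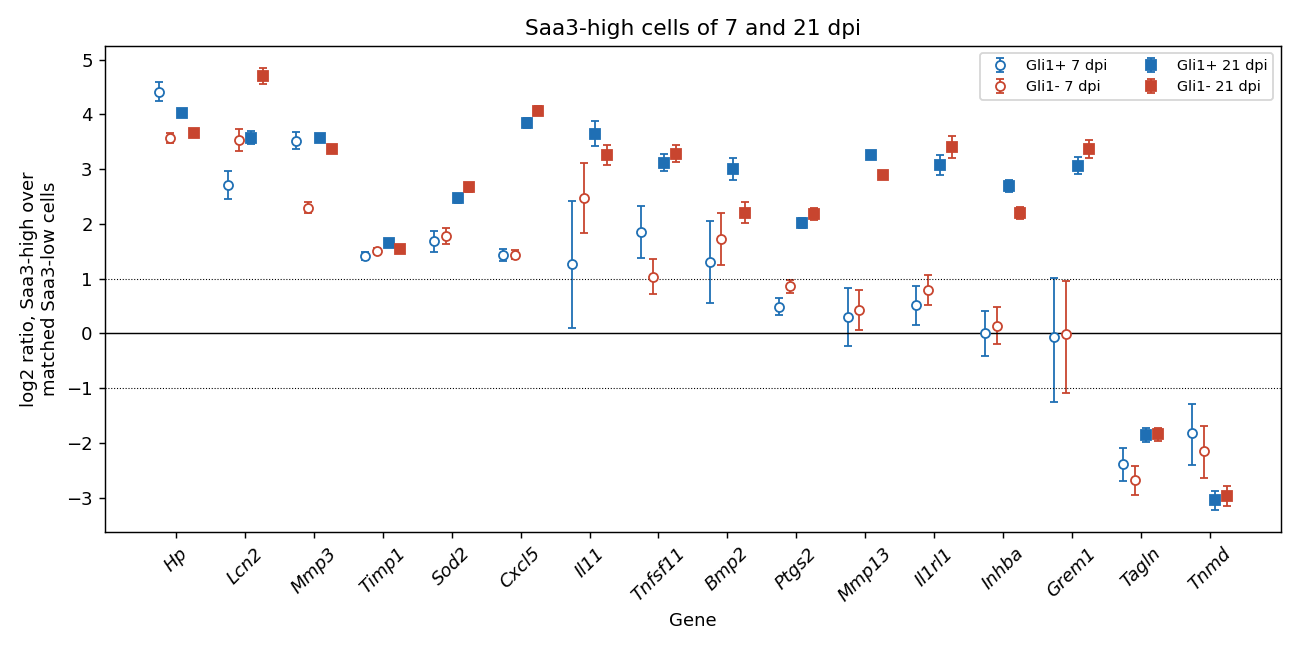
Log2 ratio of named genes in Saa3-high over depth-matched Saa3-low cells at 7 dpi and 21 dpi in both sort fractions, with intervals that cover counting error only. Hp lay at 4.41 and 3.56 at 7 dpi and 4.02 and 3.65 at 21 dpi, whereas Mmp13 lay at 0.30 and 0.43 and at 3.26 and 2.90.

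Saa3-high cells of the Gli1+ and Gli1- fractions held most of the marker genes at close levels. Of 11776 genes with enough UMIs over all 568 and 689 cells, 74 were 2-fold or more higher in the Gli1+ cells and 168 in the Gli1- cells, and the median log2 ratio was -0.01. Saa3 stood at 31109 and 30989 CPM, Mmp13 at 5257 and 5362, Mmp3 at 6723 and 6955, and Tnfsf11 at 427 and 384 CPM. Hp was lower in the Gli1+ cells, at 5122 against 7449 CPM. Genes that did differ, chosen after their values were seen, included Cxcl13, a B-cell chemokine (2.13 against 32.1 CPM), Cfd, the complement factor D that fat cells make (0.194 against 26.0 CPM), Reg3g (14.3 against 49.2 CPM) and Csf2 (13.4 against 4.55 CPM). Krt14 was at 106 CPM in Gli1+ and 7.29 CPM in Gli1- cells, in libraries with 690 and 47 epidermal cells. The pericyte gene Rgs5 was at 29.4 and 109 CPM, in libraries with 23717 and 45462 Rgs5 UMIs over all filtered cells. Whether these transcripts came from other cell types was not tested. With 1 library for each fraction, the sort and the library cannot be told apart.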

How the data were processed

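Cells were sorted into Gli1+ and Gli1- fractions and 1 single-cell 3' library (Chromium v3 kit) was made per condition. The authors deposited raw UMI counts per gene (33696 genes) and cell barcode, without normalization and before their cell filters. The file headers name Cell Ranger 9.0.0, whereas the submitters' processing notes list Cell Ranger 3.1.0, STAR and mm10; which version made these counts was not settled. Gene identifiers were used as given, and promoter windows came from RefSeq (GRCm38.p6).

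Members and gene lists were chosen with earlier results of these data known. Gated cells with Saa3 at 0.5% or more of UMIs were matched to cells under 0.1% in bins of 0.1 log10 UMIs, with 1 comparison cell per member at 21 dpi, where bins did not allow 3, and 3 at 7 dpi. UMIs were summed over cells and divided by their total (CPM). A call was a 2-fold difference of the same direction in both 21 dpi libraries, among genes with 50 or more UMIs in each. Intervals were exact Poisson, binomial (Clopper-Pearson) or conditional binomial, and a count of 0 is given with the limit of 3 counts of the total instead. No test was made, since a condition is 1 library. Genes named were the 6 markers, the 15 highest and 10 lowest by the smaller of both ratios, and up to 4 called members of each of 35 lists (505 entries, 486 genes, 1 not found). Other genes, including those named to complete a count of 5 or fewer, were chosen after their values were seen. Doublets were kept, and Scrublet (the highest scores, 0.8% per 1000 cells) served as an alternative. DoubletFinder, which the study used, was not run. Scripts were tested on simulated data. Python 3.11.15, numpy 2.4.6, scipy 1.17.1, scanpy 1.11.5, matplotlib 3.10.9, R 4.3.3 and edgeR 4.0.16 (TMM factors only) were used. Alternatives changed the Saa3 thresholds, cell filters, doublets, sex, matching, seed, scaling, depth, gene minimum and comparison cells. A gene of the lists is not reported here.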

Additional observations from a re-analysis of the deposited data

Results flagged for a closer look

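Areg, which encodes amphiregulin, a ligand of the EGF receptor, was the 1 gene past 2-fold in opposite directions in both libraries. Its log2 ratio was -1.04 in the Gli1+ library, on 29 UMIs in Saa3-high and 59 in Saa3-low cells, and 3.95 in the Gli1- library, on 94 against 6 UMIs. The difference between the libraries was not tested, and all these counts are low.

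Cells past the Saa3 threshold also occurred outside the gate, in data that the comparisons did not use. There were 80 in the Gli1+ library, 72 with neither a Pdgfra nor a Cdh5 UMI and 8 with a Cdh5 UMI, and 216 in the Gli1- library, 112 with neither and 104 with a Cdh5 UMI. Of these 104, 17 had no Pdgfra UMI. Of these, 74 and 206 held 10 or more Col1a1 UMIs, and none held a Ptprc UMI. Their summed levels of Saa3 were 26318 and 27896 CPM, of Mmp13 4876 and 4641 CPM, of Mmp3 3911 and 5531 CPM and of Hp 5001 and 6406 CPM, beside 31109 and 30989, 5257 and 5362, 6723 and 6955, and 5122 and 7449 CPM in all gated Saa3-high cells.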

How the results depend on the processing

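No paired analysis was possible because each condition was 1 library and no result came from a test. The share of Saa3-high cells was 11.6% (Gli1+) and 14.1% (Gli1-) with a threshold of 0.3%, 7.32% and 9.46% with 1%, and 7.99% and 9.46% without cells holding UMIs of other cell types. It was 11.3% in the Gli1- library without cell filters. The counts of 273 higher and 425 lower genes became 444 and 1143 without matching, 108 and 137 after thinning to 2000 UMIs per cell, and 181 and 198 with a minimum of 200 UMIs. Leaving out cells with UMIs of other cell types gave 185 higher and 189 lower genes. Under the other settings the counts were 225 to 345 higher and 287 to 637 lower, and TMM scaling gave 326 and 352. The 273 higher genes included 151 of the 185, 98 of the 108 and 247 of the 444. Fewer genes or cells enter several of these settings.

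Direction turned for few named genes. Without cells holding UMIs of other types, log2 ratios became 0.053 (Mcm6), 0.092 (Cenpf), 0.050 (Sfn) and 2.28 (Mcam) in the Gli1+ library and 0.13 (Mcam) in the Gli1- library. In the Gli1- library Cenpf became 0.40 without matching and 0.00 after thinning, which also gave 1.58 for Ifit3. Leaving out comparison cells with cartilage, bone or keratin UMIs, chosen after seeing the data, gave in the Gli1+ and Gli1- libraries 1.01 and 1.68 (Col2a1), 0.32 and 1.16 (Col9a2), 0.98 and 1.15 (Col9a1) and 0.26 and 0.081 (Krt14), in the Gli1+ library 0.56 (Krt5) and 0.017 (Sfn), and in the Gli1- library 0.31 (Matn3). Col2a1, Krt5 and Krt14 are genes of that filter and Saa3-high cells were not filtered, so for these 3 genes the change is set by the filter. With the same filter on both groups, also chosen after seeing the data, Col9a2 (0.28) and Phex (0.65) turned in the Gli1+ library, and Bglap (0.40) and Bglap2 (0.66), genes of the filter, in the Gli1- library. The cause was not tested beyond the construction of these settings. Of 97 named genes past 2-fold, 25 fell under it or turned in a library with the filter on comparison cells (Acta2, Bglap, Bglap2, Cenpf, Col10a1, Col11a1, Col24a1, Col2a1, Col9a1, Col9a2, Cspg4, Frzb, Il17rd, Krt14, Krt5, Matn3, Mcam, Mcm6, Omd, Perp, Phex, Prl2c2, Rgs5, Sfn and Ucma). With the filter on both groups 20 did (Bglap, Bglap2, Col10a1, Col11a1, Col22a1, Col2a1, Col9a1, Col9a2, Cspg4, Frzb, Il17rd, Klk1, Krt14, Krt5, Mcam, Mcm6, Omd, Phex, Sfn and Ucma), and Klk1 and Col10a1 had no ratio in the Gli1+ library, where a group held 0 UMIs. Without cells holding UMIs of other types 14 did (Cenpf, Col10a1, Csf2, Cspg4, Cxcl3, Gli2, Il17rd, Mcam, Mcm3, Mcm6, Perp, Rrm2, Sfn and Timp1), and without matching 12 (Acta2, Cenpf, Cfb, Col11a1, Cspg4, Mcam, Mcm3, Mcm6, Myh11, Rgs5, Rrm2 and Tagln). After thinning 10 did (Bst2, Cenpf, Clcf1, Cspg4, Dkk2, Frzb, Gli2, Ifit3, Il17rd and Traf1). With comparison cells under 0.5% Saa3 10 did (Acta2, Bst2, Ccl20, Ccl5, Col11a1, Col24a1, Cspg4, Fosl1, Il17rd and Rgs5). Under each other setting 10 or fewer did. Cells with Y-linked UMIs alone could not be compared, since 0 Saa3-high cells were of this kind. Depth limits the genes of few UMIs, and no alternative stands in for replicate libraries.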

Other observations

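Several inflammatory genes outside the naming rule, chosen after their values were seen, followed the pattern of Saa3-high cells to different degrees. Cxcl1, a neutrophil chemokine, was at 2672 against 1066 CPM in the Gli1+ library and 2485 against 1076 CPM in the Gli1- library, and its relative Cxcl2 at 1739 against 338 CPM in the Gli1+ library and 1244 against 207 CPM in the Gli1- library. Nos2, the inducible nitric oxide synthase, was at 68.4 against 8.40 CPM in the Gli1+ library and 29.3 against 4.03 CPM in the Gli1- library. The monocyte chemokine Ccl2 was closer between the groups, at 347 against 204 CPM in the Gli1+ library and 302 against 219 CPM in the Gli1- library, and so was Il6, at 214 against 86.0 CPM in the Gli1+ library and 215 against 115 CPM in the Gli1- library. Il1b had 5 UMIs against 1 and 3 against 3.

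Genes of wound matrix and of bone remodelling gave a mixed picture. Tnc (tenascin C), of the tendon identity list, was at 1972 against 851 CPM in the Gli1+ library and 1848 against 925 CPM in the Gli1- library. Osteopontin (Spp1), of the osteoblast list, was at 2488 against 1425 CPM in the Gli1+ library and 1939 against 1361 CPM in the Gli1- library. Tnfrsf11b (osteoprotegerin), the decoy receptor of RANKL, had log2 ratios of -0.28 and -1.55, on 86 against 103 and 38 against 110 UMIs, so that the ligand Tnfsf11 was higher and the decoy receptor was not. Vegfa, an angiogenic factor, had log2 ratios of 1.28 and 0.98.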
